A study of Homo sapiens with 12 samples.

Results

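Chromatin accessibility was compared between HCT116 cells carrying both EHF and CDX1 (EHF+CDX1) and the CDX1 cells from which they were derived, a comparison that asks about the addition of EHF to a CDX1 background. Every deposited region on chromosomes 1 to 22 was taken, apart from those inside the intervals spanning the EHF gene on chromosome 11 and the CDX1 gene on chromosome 5. This left 29449 of 30170 regions, of which 29434 passed a filter of 3 CPM, that is, counts relative to the library's scaled size, in at least 1 library. HCT116 is an established human colorectal carcinoma cell line. The CDX1 line was made with an MSCV-IRES-GFP retrovirus and sorting of GFP-positive cells. From it the EHF+CDX1 line was obtained by transfection of an EHF plasmid and isolation of clones resistant to geneticin, so it also carries clonal selection and the resistance cassette, which the CDX1 line does not. Empty vector (EV) and EHF cells served for a second look at EHF in cells without CDX1. They were transfected with the empty vector or with the EHF plasmid alone, and resistant clones were isolated in the same way. EHF and EV cells are thus alike in selection, while EHF+CDX1 and CDX1 cells are not. Each of the 4 groups had 3 libraries.

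In ATAC-seq a transposase cuts accessible DNA and inserts sequencing adapters, so that reads gather over promoters, enhancers and other open sites. EHF is an epithelial factor of the ETS family, whose members bind sites built on a GGAA core. CDX1 is a caudal homeobox factor that binds AT-rich sites and is known for its part in specifying and maintaining intestinal epithelium. An open region near a gene is not a measure of that gene's expression.

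Accessibility differed in 749 regions, 600 higher and 149 lower in EHF+CDX1 than in CDX1 (edgeR quasi-likelihood test, Benjamini-Hochberg adjusted p under 0.05). The called regions were 2.54% of those tested, 2.04% higher and 0.506% lower, and with the regions left aside 783 of 30154 (2.6%) were called. Among the 1786 most accessible regions, with a mean log2 CPM of at least 4, the split ran the other way, 1 higher and 15 lower. Most of the higher regions were all but closed in CDX1 cells and lay away from promoters. The sequences of 6 regions on which the account turns are printed first, from the plus strand of hg38, with capitals marking every match, on either strand, to one of the motifs listed in the account of motifs. They were chosen to show an open site without counts in the CDX1 libraries, with overlapping CDX and AP-1 letters (GRM3), and a unique site called under every alternative (GOLIM4). The others were the sites of 2 intestinal genes (LGALS4, GPA33) and 2 sites of lower accessibility (CLEC16A, B3GAT1), the second of them a tandem repeat.
GOLIM4-side region, chr3:168003148-168003343: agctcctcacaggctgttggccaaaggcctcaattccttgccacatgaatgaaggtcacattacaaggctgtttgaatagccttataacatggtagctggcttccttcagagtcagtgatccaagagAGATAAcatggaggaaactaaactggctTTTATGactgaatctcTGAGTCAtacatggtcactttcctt
GRM3 intron region, chr7:86846906-86847056: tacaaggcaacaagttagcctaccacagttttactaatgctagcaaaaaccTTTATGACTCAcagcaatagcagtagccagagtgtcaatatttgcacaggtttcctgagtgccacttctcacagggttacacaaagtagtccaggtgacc
LGALS4 upstream region, chr19:38813046-38813196: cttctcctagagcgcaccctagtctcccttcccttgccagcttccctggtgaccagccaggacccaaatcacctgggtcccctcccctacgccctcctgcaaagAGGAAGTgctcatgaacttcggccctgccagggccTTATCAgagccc
GPA33 intron region, chr1:167082674-167082936: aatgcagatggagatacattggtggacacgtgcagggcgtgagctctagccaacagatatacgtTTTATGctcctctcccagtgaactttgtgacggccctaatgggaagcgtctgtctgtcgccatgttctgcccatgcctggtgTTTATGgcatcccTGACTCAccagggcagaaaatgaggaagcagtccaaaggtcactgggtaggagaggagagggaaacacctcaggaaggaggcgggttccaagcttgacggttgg
CLEC16A intron region, chr16:10991865-10992015: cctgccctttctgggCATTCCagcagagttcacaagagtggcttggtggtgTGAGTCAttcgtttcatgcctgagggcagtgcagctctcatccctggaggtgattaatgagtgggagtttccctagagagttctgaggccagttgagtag
B3GAT1-side region, chr11:134851869-134852089: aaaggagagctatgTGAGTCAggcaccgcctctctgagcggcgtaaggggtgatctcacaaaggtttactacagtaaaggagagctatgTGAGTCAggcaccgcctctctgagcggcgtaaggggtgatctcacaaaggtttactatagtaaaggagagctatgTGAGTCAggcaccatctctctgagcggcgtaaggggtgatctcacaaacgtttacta

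Counts over the exons of the introduced genes followed the labels. EHF exons held 30 to 48 counts in the CDX1 libraries and 91907 to 759842 in the EHF+CDX1 libraries, and CDX1 exons held 524981 to 1916479 and 77147 to 545352. Library totals were 1241063 to 2443334 counts in CDX1 and 1543391 to 2137259 in EHF+CDX1. Introduced exons and matches to mitochondrial DNA took 72.7 to 93.0% of these in CDX1, 82.4 and 83.6% in EHF+CDX1 replicates 1 and 3, and 46.1% in replicate 2. The regions compared here, without mitochondrial matches, kept 167213 to 391337 counts per CDX1 library and 248387 to 889368 per EHF+CDX1 library. Replicate 2 had the highest median count per region in every group, at 6 in EV, 11 in EHF and 9 in CDX1. EHF+CDX1 replicate 2 stood farthest apart, with a median of 22 counts against 5 and 7 in the other EHF+CDX1 libraries and 3 to 9 in CDX1. It also had the fewest counts over the introduced exons, 9.99% of its total against 61.07% and 59.97% in replicates 1 and 3, and the part of this in the results was not tested. It supplied 59.3% of the EHF+CDX1 counts in the compared regions outside mitochondrial matches and a median of 77.1% over the regions called higher. The EHF+CDX1 libraries held counts at start sites of the epithelial genes EPCAM, KRT8, KRT18 and KRT19, while none of the regions lay within 5 kb of a CDH1 start site. Of 22 leukocyte and endothelial genes 3 had a region, with 7 to 71 counts per library in all, and of 7 fibroblast genes 5 had one, with 20 to 109 counts. Whether these libraries came from separate cultures is not given, so p-values measure the spread between libraries, which may be technical.

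**Figure D1:**
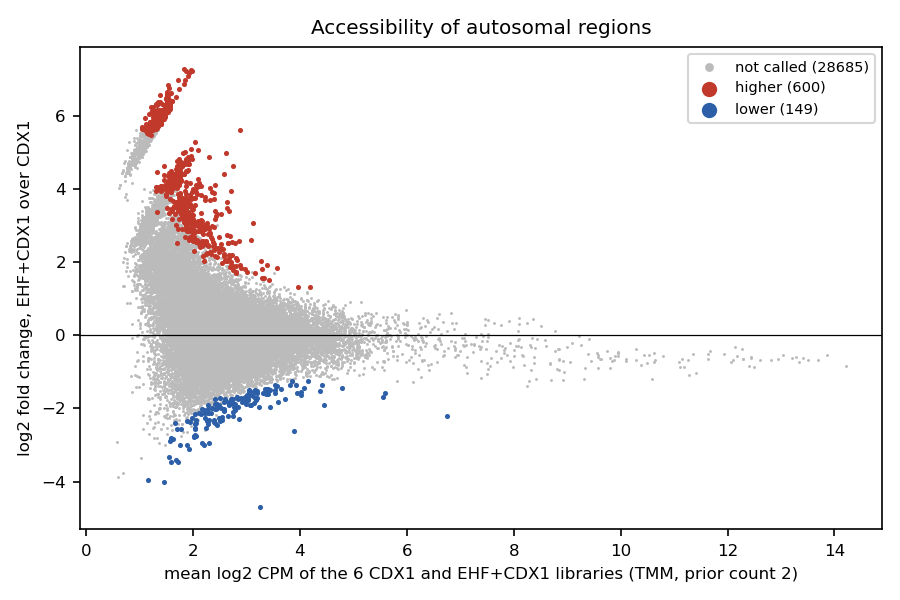
Log2 fold change of EHF+CDX1 over CDX1 (y axis) against the mean log2 CPM of the 6 libraries (x axis), with 1 point per tested region, red for the 600 called higher, blue for the 149 called lower and grey for the rest. The separate band at the upper left holds regions with no CDX1 counts, whose fitted fold change depends on the prior count, and most called regions lie at low mean CPM.

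Regions called higher had a median of 0 counts in each CDX1 library, and of 9, 46 and 4 counts in EHF+CDX1 replicates 1, 2 and 3. Scaled for library size and composition (trimmed mean of M-values, TMM), the EHF+CDX1 medians were 5.34, 10.4 and 3.32 CPM. In EV and EHF cells the medians were 0 to 1 counts per library. The filter asked for 3 CPM in only 1 library, so a region could enter through EHF+CDX1 alone. Of the 600, 521 still passed it without EHF+CDX1 replicate 2. Low counts in the other lines thus follow in part from how regions entered and are no separate result. No CDX1 library held a count in 178 of the 600 regions, 283 had 1 to 3 counts over the 3 libraries together and 139 had more. The median fitted log2 fold change was 4.07, and 3.28 when the regions with no CDX1 count were set to the lower bound given by a floor of 3 counts over the group. Regions called lower were open in CDX1, with medians of 9.46 to 11.6 CPM per library, and fell to 2.26 to 2.49 CPM in EHF+CDX1. Of the 149, 3 matched mitochondrial DNA. Medians of the lower regions in EV and EHF cells were 6.01 to 9.67 CPM. The median log2 fold change of the lower regions was -1.95.

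The groups did not overlap in 552 of the 600 higher and 134 of the 149 lower regions, beside 20.5% of all regions tested. In 386 of the higher regions every EHF+CDX1 library lay above all 9 other libraries, beside 5.33% of all regions, and in 59 of the lower regions every one lay below them, beside 1.21%. These shares describe regions chosen by the same counts and are no further evidence. The number called depended on single libraries. It was 42 of 27260 regions (0.154%) with EHF+CDX1 replicate 2 left out and 1207 with EHF+CDX1 replicate 3 left out. Omitting CDX1 replicate 1, 2 or 3 gave 297, 109 and 335. Without EHF+CDX1 replicate 2 all 521 higher regions that could still be tested stayed higher, with a median log2 fold change of 3.40. All 149 lower regions stayed lower, with a median of -1.90, but only 33 higher and 8 lower regions were called. The regions had been chosen with the counts of all 3 EHF+CDX1 libraries, so the kept signs and medians are no separate evidence. DESeq2 called 65 regions and gave no adjusted p for 3354 of the 29434, which could not be called there. The split between directions moved with the scaling, to 282 higher and 1 lower with library size alone, which shifted the median over all regions from 0.13 to 0.82, and to 610 higher and 374 lower with quantile normalisation in limma voom, which shifted it to -0.02.

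Among regions with a mean of at least 10 counts in the higher group, the 12 with the widest gap between the groups are described for each direction. Of the 12 that opened, 4 had 1 to 3 CDX1 counts in all and 8 had none. A region 41.5 kb from the start of GOLIM4, a Golgi membrane protein gene, held 1, 0 and 1 counts in CDX1 replicates 1 to 3 and 29, 92 and 21 in EHF+CDX1. The groups were far apart, and EV and EHF libraries held 0 to 5 counts. Counts summed over the EHF+CDX1 libraries, relative to their summed scaled sizes, were 38.4 times those of CDX1 (95% exact counting interval 10.4 to 320). Mean CPM was 18.5 in EHF+CDX1 and 0.715 in CDX1. The adjusted p was 1.8e-07 by edgeR, and the region was called under all 27 alternatives. Ratios and lowest folds below are of this summed kind, in which the deepest library weighs most, and differ from ratios of mean CPM. At TLE4, a corepressor gene of the Groucho family, a region covered a start site and an exon (chr9:79571558-79571894). There the counts were 0, 0 and 2 in CDX1 and 53, 139 and 29 in EHF+CDX1. This was 59.8 times higher (16.4 to 497, adjusted p = 1.6e-07 by edgeR) and was lost only under DESeq2. At the start of ZNF736, a zinc finger gene (chr7:64313820-64313987, exon), CDX1 held 1, 2 and 0 counts and EHF+CDX1 held 29, 48 and 18. The groups were again apart, with a ratio of 17.1 (5.69 to 84.5, adjusted p = 6.5e-05 by edgeR).

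A region in an intron of ARHGAP32, a GTPase-activating protein gene, 834 bp from a start site (chr11:128999292-128999575), had no CDX1 counts and 11, 52 and 21 counts in EHF+CDX1. It was at least 15.1-fold higher (adjusted p = 5.9e-06 by edgeR). Its sequence has 10 other matches in hg38 of at least 90% identity over at least 80% of its length, none of them of at least 98% identity. The GRM3 intron site printed above, in the gene of a metabotropic glutamate receptor, also had no CDX1 counts and held 11, 90 and 7 counts in EHF+CDX1. Here replicate 2 dominated, and the site was at least 19.5-fold higher (adjusted p = 5.9e-06 by edgeR). Its CDX letters (TTTATG) run into its AP-1 letters (TGACTCA), sharing a TG. An intergenic region on chromosome 6 (chr6:61322946-61323119), whose nearest coding gene KHDRBS2 starts 963 kb away, went from no CDX1 counts to 29, 55 and 7, at least 16.4-fold (adjusted p = 5.9e-06 by edgeR). That sequence has 420 other matches in hg38 of at least 90% identity over at least 80% of its length, all on 1 chromosome, so reads from copies may have been assigned to it.

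The other 6 lay near CWC22 (a splicing factor), over an exon of the long noncoding RNA LINC02848, in an intron of LINC01499, close to LINC00355, and nearest to GYPC (glycophorin C) and SNTB1 (a syntrophin). They held 0 to 1 counts in CDX1 libraries and 9 to 22, 39 to 67 and 7 to 10 counts in EHF+CDX1 replicates 1, 2 and 3. In all 6 the groups were apart and replicate 2 held most counts. The 5 with no CDX1 count were at least 10.1-fold to 16.2-fold higher. The SNTB1-side region had 1 CDX1 count, a ratio of 36.8 with a wide interval of 6.38 to 1474, and 2873 other matches in hg38. Of the 12 regions, 11 were also called without EHF+CDX1 replicate 2, the exception being the one nearest to GYPC (adjusted p = 0.052 by edgeR).

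**Figure D2:**
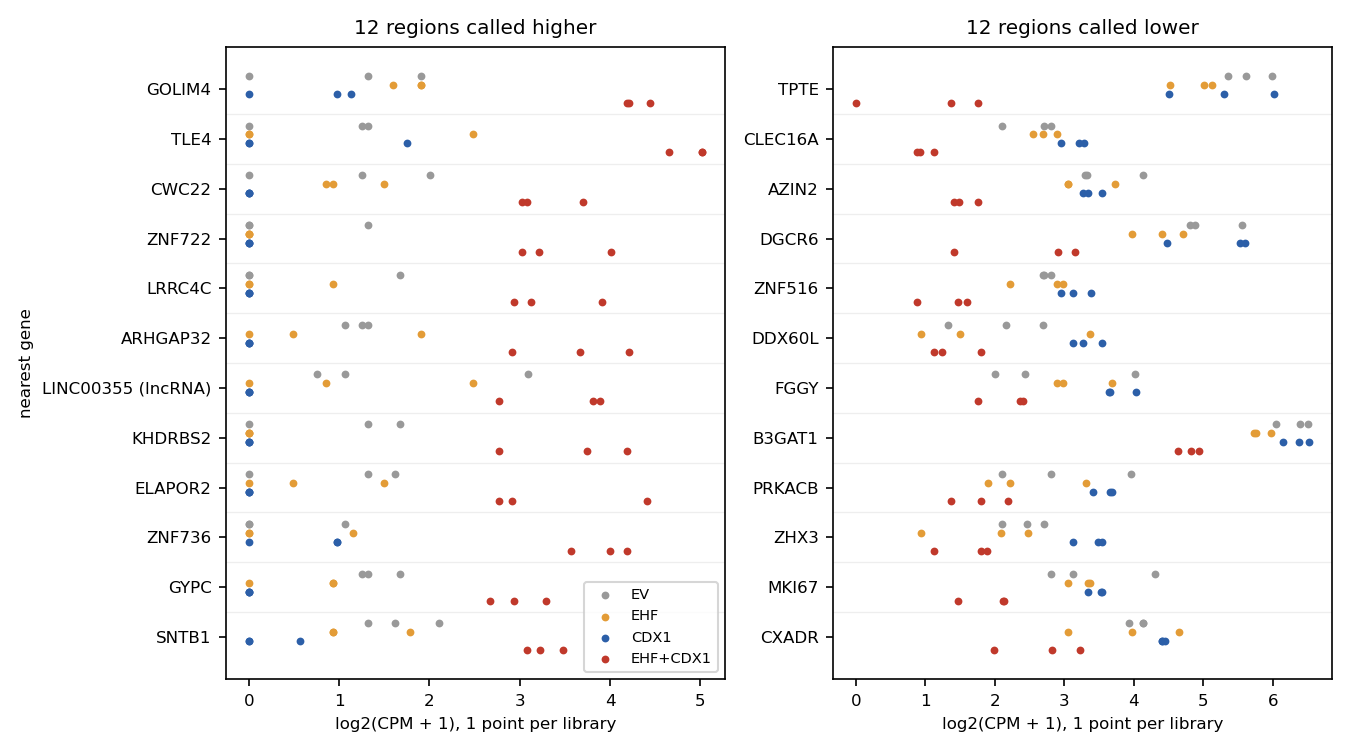
Log2(CPM + 1) (x axis) in each of the 12 libraries for the 12 regions called higher and the 12 called lower with the widest gap between EHF+CDX1 and CDX1, named by their nearest gene (y axis). Points are libraries, coloured by group, and EHF+CDX1 (red) is separate from CDX1 (blue) in every row.

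The strongest loss was at an intergenic region of chromosome 21 (chr21:10325737-10325909), 196 kb from TPTE, a testis-expressed phosphatase gene. It held 40, 45 and 54 counts in CDX1, 4, 7 and 0 in EHF+CDX1, and 24 to 77 in the EV and EHF libraries. EHF+CDX1 thus lay below all others, at -4.70 ± 0.50 on the log2 scale (SE; edgeR, adjusted p = 6.3e-13), and the call held under all 27 alternatives. The sequence has 33 other matches in hg38. A region in an intron of FAM230F, of a multicopy family (chr22:18892387-18892561), held 47, 44 and 40 counts in CDX1 and 11, 35 and 2 in EHF+CDX1, a log2 fold change of -2.62 ± 0.40 (adjusted p = 1.3e-06 by edgeR). It has 13 other matches, 1 of them of at least 98% identity, so its counts are uncertain. The repeat 440 kb from B3GAT1, a glucuronyltransferase gene, was the most open of the 12, with 85, 144 and 77 counts in CDX1 and 50, 106 and 33 in EHF+CDX1. In CPM the groups were apart, at 69.5 to 91.1 against 23.9 to 29.7. Its log2 fold change was -1.58 ± 0.43 (SE; edgeR, adjusted p = 0.022). As printed above it holds the AP-1 letters TGAGTCA 3 times, and it has 6 other matches.

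Single-copy sites that lost accessibility included an intron of CLEC16A, a regulator of mitophagy, with 7, 18 and 7 counts in CDX1 and 2, 4 and 1 in EHF+CDX1. The mean fell from 7.90 ± 1.0 to 0.974 ± 0.19 CPM (SD, n = 3 each), a log2 fold change of -2.95 ± 0.65 (adjusted p = 0.0031 by edgeR). The remaining 8 lay in introns of AZIN2 (antizyme inhibitor), ZNF516, PALLD (the actin-binding protein palladin), PRKACB (a catalytic subunit of protein kinase A), ZHX3 and the noncoding LINC01163, over an exon of FGGY-DT, and 58.2 kb from CXADR, a junction-associated virus receptor. Their log2 fold changes ran from -2.45 to -1.75. All groups were apart by the rule of choice. Without EHF+CDX1 replicate 2 the directions held, which that rule favours, but only the chromosome 21 and FAM230F regions of the 12 were called.

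Across all alternatives, 27 of the 749 regions (24 higher, 3 lower) were called in each of the 12 fits that left out a library, and 7 (6 higher, 1 lower) in every alternative that tested them. Besides the GOLIM4, ARHGAP32, chromosome 6 and chromosome 21 regions these were 3 that the rule of choice did not name and that were picked after their values were seen. An exon of KCNV1, a potassium channel subunit gene, at chr8:109975578-109975853, held 0, 4 and 0 counts in CDX1 and 56, 96 and 12 in EHF+CDX1 (log2 fold change 4.39 ± 0.62, adjusted p = 2.3e-07 by edgeR). An intergenic region 358 kb from OTOL1 (chr3:161854435-161854654) held 0, 6 and 0 against 52, 110 and 16. An intronic region 72.4 kb from ZNF722 (chr7:63926316-63926489) held 2, 0 and 1 against 38, 120 and 15. In these 3 regions too every EHF+CDX1 library held more counts than any CDX1 library.

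Gene lists were read through the regions within 5 kb of a start site, of which 16000 were tested and 155 (0.969%) were called higher and 56 (0.35%) lower. Over all tested regions the median log2 fold change was 0.13 and 56.4% were positive. The enterocyte and brush border list, of genes for the absorptive cell surface, had the highest median of the lists with more than 3 regions, 1.08 over 41 regions of 21 genes, with 73.2% positive, 2 called higher and 0 lower. At an unadjusted p under 0.05 there were 11 higher and 3 lower, beside 7.54% higher and 4.48% lower of all regions within 5 kb of a start site. Without EHF+CDX1 replicate 2 that median was 0.50, and by scaling it ran from 0.16 (cyclic loess) to 1.92 (library size alone). With cyclic loess it was not the highest, and 4 other lists stood above it. Those lists were chosen with earlier results known, and no test of a list was made.

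LGALS4 codes for galectin-4, a lectin of intestinal epithelium. The region 101 bp upstream of its start, which also lies within 5 kb of ECH1, an enzyme of fatty acid oxidation, held 0, 1 and 0 counts in CDX1, 15, 44 and 5 in EHF+CDX1 and 0 to 3 in EV and EHF. In CPM EHF+CDX1 held 4.15 to 9.93 and CDX1 0 to 0.482, without overlap, though EV replicate 3 held 4.51. The ratio to CDX1 was 34.6 (5.99 to 1388, adjusted p = 0.003 by edgeR, and 0.11 without EHF+CDX1 replicate 2). In the sequence above it carries the ETS letters AGGAAGT and a GATA match. GPA33, the A33 antigen of intestinal epithelium, had 3 regions. The intronic one printed above held 3, 5 and 1 counts in CDX1 and 9, 68 and 12 in EHF+CDX1, or 2.16 ± 0.88 and 10.2 ± 5.0 CPM (SD, n = 3 each). The groups did not overlap, and the log2 fold change was 2.21 ± 0.59 (adjusted p = 0.021 by edgeR, and 0.40 without EHF+CDX1 replicate 2). The other 2 were not called, at log2 fold changes of 1.92 and 1.62 (adjusted p = 0.30 and 0.50 by edgeR).

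Of the other markers of differentiated colon, VIL1 (villin, of the microvillus core) had a region 82 bp from its start with 2, 0 and 1 counts in CDX1 and 9, 28 and 0 in EHF+CDX1. The groups overlapped, at a ratio of 6.67 (2.11 to 33.8, adjusted p = 0.25 by edgeR). A second VIL1 region had a log2 fold change of 1.02 ± 1.20 (adjusted p = 0.70 by edgeR). CDH17, the liver-intestine cadherin, had 2 regions of opposite sign. Over an exon at its start CDX1 held 1, 3 and 6 counts and EHF+CDX1 5, 32 and 9 (log2 fold change 1.08 ± 0.75, adjusted p = 0.46 by edgeR), while 2.50 kb upstream CDX1 held 4, 12 and 5 and EHF+CDX1 3, 11 and 0 (-1.53 ± 0.65, adjusted p = 0.19 by edgeR). None of the regions lay within 5 kb of a KRT20 start site.

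Among intestinal transcription factors 1 of 70 regions was called higher and 0 lower, with a median of 0.52 over the list. The stem cell and Wnt list had 2 of 54 regions called higher, 0 lower and a median of 0.23. An exon of FZD5, a Wnt receptor (chr2:207765713-207765863), went from no counts to 6, 28 and 4, and a region 3.11 kb from SP5, a Wnt target factor (chr2:170712079-170712229), from no counts to 9, 23 and 2. These were at least 6.85-fold and 6.13-fold higher (adjusted p = 0.026 and 0.038 by edgeR). Without EHF+CDX1 replicate 2 the FZD5 region fell under the filter and the SP5 region was not called (adjusted p = 0.21 by edgeR). SPRY2, an inhibitor of receptor tyrosine kinase signalling on the AP-1 and stress list, had a region 116 bp from its start (chr13:80341242-80341450) with 7, 10 and 3 counts in CDX1 and 23, 139 and 12 in EHF+CDX1. Its log2 fold change was 1.93 ± 0.45 (adjusted p = 0.0061 by edgeR, and 0.40 without EHF+CDX1 replicate 2), and it was the 1 called region of 69 on that list.

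No region was called by edgeR for the ETS family (31 regions, median 0.35), epithelial junction and keratin genes (111, 0.36), mesenchymal genes (30, -0.17, or 0.48 when scaled by library size alone), interferon response (45, -0.04, or 0.69), oxidative phosphorylation (68, 0.02), Hippo targets (38, 0.19), cell cycle and replication (93, 0.09) or ribosomal proteins (81, 0.08). At an unadjusted p under 0.05 the junction and keratin list had 12 higher and 2 lower, and the ETS list 5 and 0, while the others had 0 to 5 in either direction. Of all regions this near to start sites 7.54% were higher and 4.48% lower, as given above. The shares higher of these 2 lists, 12 of 111 and 5 of 31, lay above the first. Their shares lower, 2 of 111 and 0 of 31, lay below the second, and whether a list differed was not tested. The fatty acid and xenobiotic list had the LGALS4 and ECH1 region as its only call of 82, with a median of 0.11 and, at an unadjusted p under 0.05, 13 higher and 5 lower, beside the same shares. For secretory and neuroendocrine genes the median was 0.37 over 22 regions, with 1 called higher and 0 lower. The leukocyte and endothelial list had 3 regions and none called by edgeR, with 0 at an unadjusted p under 0.05. Its median was 1.0, close to the 1.08 of the enterocyte list, -0.0016 without EHF+CDX1 replicate 2 and -0.03 with cyclic loess.

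**Figure D3:**
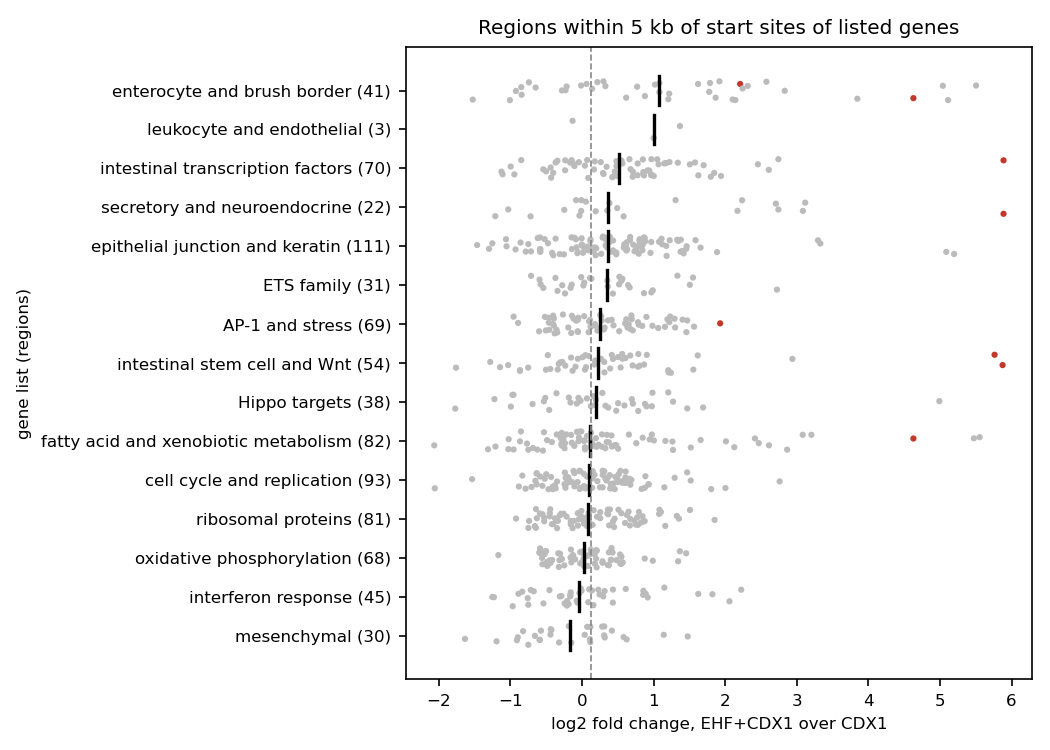
Log2 fold change of EHF+CDX1 over CDX1 (x axis) for each region within 5 kb of a start site of a listed gene, by list (y axis, number of regions in brackets). Red points were called higher and grey ones not called, black bars are list medians and the dashed line is the median of all tested regions, 0.13. The enterocyte and brush border list has a median of 1.08.

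Position and base composition set the called regions apart from the rest. Only 18.7% of the higher and 23.5% of the lower regions (95% Wilson interval 17.4 to 30.9) were within 1 kb of a start site, beside 45.0% of all tested. Over 50 kb from any start site lay 36.2%, 20.1% and 15.7%. Intergenic regions made up 46.0% of the higher, 32.9% of the lower and 30.9% of all tested regions. Median GC content was 48.3%, 51.4% and 56.3% in that order. By GC content, 3.45% of regions with 40 to 50% GC were called higher but 0.46% of those with 70% or more. The median log2 fold change was 0.47 in regions under 40% GC and 0.15 in those of 70% or more, and without EHF+CDX1 replicate 2 these were 0.05 and 0.17. Of the 34 regions called higher without that library 41.2% lay within 1 kb of a start site and 38.2% had under 50% GC, beside 55.0% with it. With GC-dependent offsets, an alternative chosen after seeing the data, 505 of the 600 higher and all 149 lower regions were called in the same direction, and 60.5% of 888 calls were higher in place of 80.1% of 749. The part of GC content in these counts was not tested further.

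Motifs were counted as exact letters on both strands in the central 150 bp of each region, and a base may belong to matches of more than one motif. The forkhead (FOX) letters TGTTTAC were found in 18.0% of the higher regions (15.1 to 21.3), 2.68% of the lower and 4.36% of all tested. Letters of caudal factors (CDX), counted where a region held either TTTATG or else the variant TTTATT, were in 26.0% (22.7 to 29.7), 15.4% and 14.1%. For GATA factors, with the letters AGATAA and as a second form TGATAA, the shares were 19.2%, 8.72% and 9.22%. TCF/LEF letters, ATCAAAG, the sites of the nuclear end of Wnt signalling, were in 6.50%, 2.01% and 2.40%. ETS letters, which the family of EHF binds, were counted as AGGAAGT and, in a second form, CGGAAGT. They stood in 9.67% of the higher regions (7.55 to 12.3), 7.38% of the lower and 2648 of all 29434, shares whose intervals overlap. Promoter-type SP/KLF letters, GGGCGG, were in 12.3%, 12.8% and 28.3% of higher, lower and all regions. The core of the CTCF motif, of the insulator protein, was in 0.333%, 4.03% and 3.01%. For AP-1, read as TGACTCA and its reverse complement TGAGTCA, the shares were 17.0%, 22.8% and 14.6%. TEAD letters, GGAATG, gave 10.7%, 13.4% and 10.4%, and RUNX letters, TGTGGTT, gave 5.50%, 5.37% and 3.40%.

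AT-rich letters are commoner in AT-rich DNA, so the shares were also taken among regions over 1 kb from a start site with 40 to 50% GC. There FOX letters were in 13.9% of 245 higher regions (10.1 to 18.8) and 6.03% of 6849 tested, CDX letters in 39.2% (33.3 to 45.4) and 27.6%, GATA letters in 25.7% and 19.1%, and ETS letters in 10.2% (7.01 to 14.6) and 7.49%. The same letters read backwards, a string with the same bases, gave 3.27% and 3.29% for FOX and 15.1% and 18.5% for CDX. Shares of FOX and CDX letters among the 34 regions called higher without EHF+CDX1 replicate 2 were 8.82% and 20.6%, which rest on few regions. With GC-dependent offsets they were 19.2% and 21.4% of the higher regions, and CDX letters were then in 21.7% of the lower ones. A match says only that the letters are present.

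**Figure D4:**
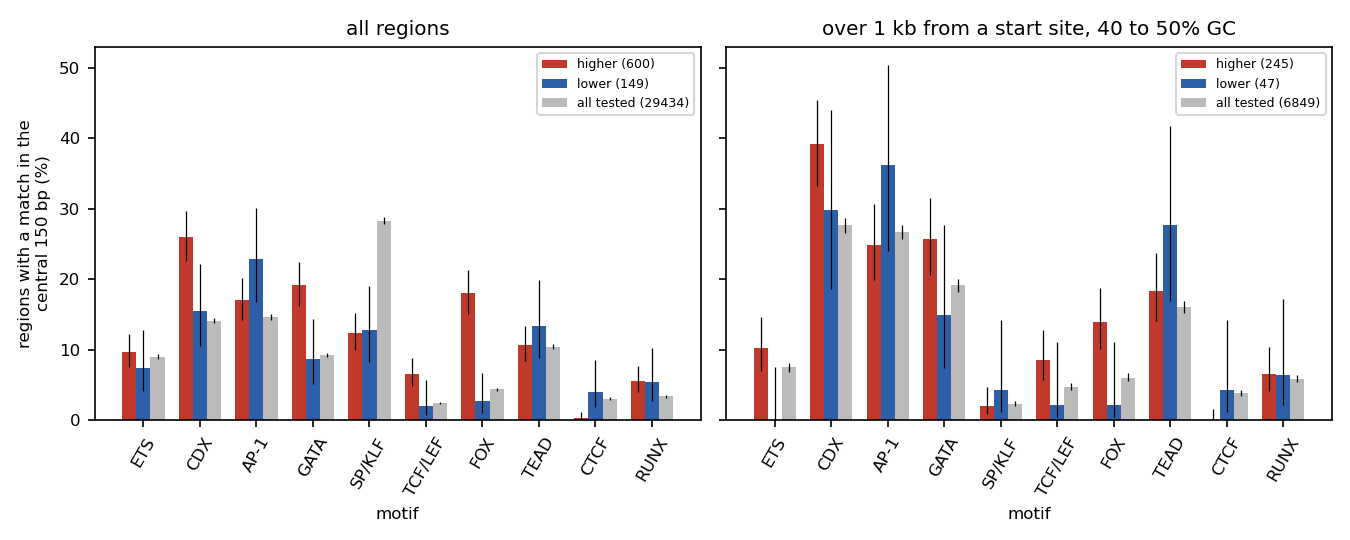
Share of regions with a motif match in the central 150 bp (y axis, %) for each motif (x axis), in all regions (left) and in those over 1 kb from a start site with 40 to 50% GC (right). Bars are regions called higher (red), called lower (blue) and all tested (grey), numbers of regions are in brackets and lines are 95% Wilson intervals. FOX letters stand at 18.0% of higher against 4.36% of all regions on the left and 13.9% against 6.03% on the right.

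The calls were unevenly spread over chromosomes. Chromosome 13 held 80 of the 600 higher regions, 6.37% of its 1255 tested regions, and a median log2 fold change of 0.85. Chromosomes 10 and 16 lay farthest the other way, with medians of -0.44 and -0.35, 3 and 0 regions called higher and 16 and 12 called lower. Medians of the other chromosomes ran from -0.27 (chromosome 18) to 0.39 (chromosome 2). Chromosome 13 took 2.11, 2.47 and 2.18% of the counts in CDX1 replicates 1 to 3 and 2.69, 4.80 and 2.63% in EHF+CDX1. All 3 EHF+CDX1 libraries were above CDX1, and replicate 2 was far above the other 2. Chromosome 10 took 5.16, 5.39 and 5.07% in CDX1 and 4.41, 3.57 and 4.20% in EHF+CDX1, again without overlap, while the EV and EHF libraries held 4.79 to 5.58%. On chromosome 16 the groups overlapped, at 3.82 to 4.65% and 2.68 to 4.27%. Of the 22 chromosomes 3 were higher and 5 lower in EHF+CDX1 without overlap, and near start sites 9 and 5. With 3 libraries against 3 an exact two-sided permutation test cannot go below p = 0.1.

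The shifts covered long stretches. In windows of 20 Mb with at least 40 regions the highest medians were 1.69 and 1.42, from 80 to 100 and from 60 to 80 Mb of chromosome 13, where 26 and 24 regions were called higher. The lowest were -0.72 from 80 Mb of chromosome 16 and -0.69 from 100 to 120 Mb of chromosome 10, where 7 regions each were called lower and 0 higher. In the chromosome 10 window 12.4% of 338 regions had a positive fold change. Without EHF+CDX1 replicate 2 the chromosome 13 windows fell to 0.51 and 0.38, ranks 8 and 15 of 146 windows. The highest was then chromosome 20 from 60 Mb, at 0.93 over 56 regions (0.88 with all libraries). Those of chromosomes 16 and 10 were at -0.51 and -0.52. Regions within 1 kb of start sites had window medians of the same signs, 0.41 and 0.52 on chromosome 13, -0.57 on chromosome 16 and -0.61 on chromosome 10. Within 1 kb of start sites the chromosome 10 window took 1.64, 1.59 and 1.64% of counts in CDX1 and 1.07, 0.818 and 1.12% in EHF+CDX1, and every EV and EHF library held more than any EHF+CDX1 library. The chromosome 13 window from 80 Mb took 0.311, 0.334 and 0.291% in CDX1 and 0.325, 0.517 and 0.321% in EHF+CDX1, so that there replicates 1 and 3 overlapped CDX1. None of the 12 libraries was of genomic DNA, and a shift of a whole segment and a change at its single sites cannot be told apart from these counts.

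**Figure D5:**
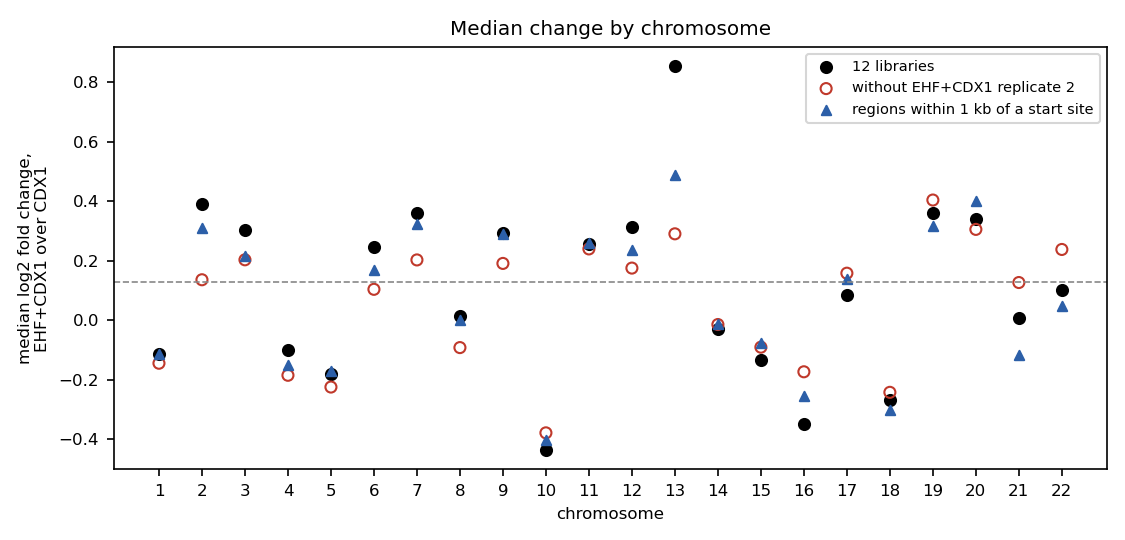
Median log2 fold change of EHF+CDX1 over CDX1 (y axis) for the tested regions of each chromosome (x axis), with all 12 libraries (black), without EHF+CDX1 replicate 2 (open red) and for regions within 1 kb of a start site (blue triangles). The dashed line is the median of all tested regions, 0.13. With all libraries chromosome 13 stands highest, at 0.85, but without that replicate it is at 0.29, below chromosomes 19 (0.40) and 20 (0.31), while chromosome 10 is lowest both ways, at -0.44 and -0.38.

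Several higher regions often lay around the same gene. DACH1, a homologue of the Drosophila dachshund factor on chromosome 13, was the nearest coding gene of 6, out of 17 regions tested there. On the same chromosome GPC5 had 5 of 46, KLHL1 5 of 28 and SLITRK6 5 of 23, beside 6.37% over chromosome 13. KCNV1 on chromosome 8 had 5 of 22 and LRRC4C on chromosome 11 had 5 of 15, beside 2.04% of all tested regions. These genes were listed for having the most. These are mostly large or isolated genes, and the higher regions lay up to 1694 kb from a start site.

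In cells without CDX1, EHF against EV called 0 of the same regions by edgeR (0%), with 1453 at an unadjusted p under 0.05 and 0 called by DESeq2. These groups share no library with the comparison above, though the fit shares its estimate of spread. Over the 600 regions higher on adding EHF to CDX1 cells the median log2 fold change of EHF against EV was -0.38 and 234 were positive, beside 0.02 and 51.2% over all regions. EV and EHF libraries had medians of 0 to 1 counts in these 600 regions, so these values rest on few reads and show no direction of EHF there. Over the 149 lower regions the median of EHF against EV was -0.09, with 57.7% negative. The difference between both effects of EHF (interaction) was called in 27 regions (0.0917%), 21 positive and 6 negative, of which 19 were called higher and 4 lower above. Since both use the same EHF+CDX1 and CDX1 counts, that overlap is no separate evidence. Only EHF+CDX1 against CDX1 also differs in geneticin selection and cloning, which the interaction cannot tell apart from the presence of CDX1. Without EHF+CDX1 replicate 2 the interaction was called in 1 region only, that of chromosome 21.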

How the data were processed

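ATAC-seq libraries of 4 HCT116 lines, 3 per line, were used as deposited. Per the study's methods and the submitters' processing notes, the authors mapped paired reads to hg38 with Subread 2.0.0, retained reads with a unique position, ran HOMER 4.7 for peaks, merged these over samples and made raw counts per region with featureCounts 2.0.0. They also deposited log2 CPM values, used here only as an alternative. Duplicate removal and read shifting are not given in the sources used here. Groups and replicate numbers came from the sample titles.

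Regions with 3 CPM in at least 1 library were kept. Counts of all 12 libraries were scaled by TMM and fitted with edgeR 4.0.16 (R 4.3.3, robust quasi-likelihood, 1 term per group), adjusted by Benjamini-Hochberg over all tested regions, X and Y and the introduced genes included, and called at 0.05. Standard errors are the fold change over the root of F. CPM are TMM-scaled. Alternatives used DESeq2 1.42.0, limma 3.58.1, other scalings and filters, a replicate block and leaving out libraries. Regions were annotated with GENCODE 44, mitochondrial matches (at least 40 bp, 80% identity) and other copies (at least 90% identity over 80% of the length, unplaced and alternative sequences included) were found by BLAST+ 2.17.0.

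Ratios for single regions are of counts summed over a group, relative to its summed scaled library sizes. Precision is given by exact or Wilson intervals and by floors of 3 counts over the summed group. Both cover counting error alone, as amplified reads carried no molecular identifiers. Regions, gene lists, motifs and tests were chosen with earlier results of these data known. Named regions were the 12 higher and 12 lower calls with a mean of at least 10 counts in the higher group and the widest gap in log2 CPM (prior count 2), called regions within 5 kb of a start site of a listed gene, up to 5 per list, and the regions of VIL1, GPA33, KRT20 and CDH17. Of these regions 1 is not reported here. Other regions and genes were named after their values were seen.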

Additional observations from a re-analysis of the deposited data

Results flagged for a closer look

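The difference between EHF+CDX1 and CDX1 departed from that between EHF and EV in 27 autosomal regions, by the interaction term of the edgeR fit. Selection and cloning differ within the first pair only and cannot be told apart from the presence of CDX1. Among the regions named above by the rule of choice, 6 had a called interaction, and so had the KCNV1 exon (adjusted p = 0.035 by edgeR). The chromosome 21 region nearest to TPTE held 57, 58 and 32 counts in EV, 24, 77 and 37 in EHF, 40, 45 and 54 in CDX1 and 4, 7 and 0 in EHF+CDX1, with an adjusted p of 3.4e-05 for the difference (edgeR). The chromosome 6 region nearest to KHDRBS2 had an adjusted p of 0.012 and the chromosome 13 region close to LINC00355 one of 0.018 (edgeR). For the sites in GRM3 and ARHGAP32 and nearest to GYPC it was 0.041, 0.048 and 0.046 (edgeR). In the last 5 of these regions the EV and EHF libraries held 0 to 5 counts each, so the comparison within cells lacking CDX1 rests on few reads. Other regions with a called difference included, named after their values were seen, one 21 bp from a start site of ADAM19, a metalloprotease, with 3, 4 and 4 counts in EV, 10, 28 and 10 in EHF, 9, 21 and 13 in CDX1 and 2, 13 and 5 in EHF+CDX1 (adjusted p = 0.019 by edgeR).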

How the results depend on the processing

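The 749 regions called between EHF+CDX1 and CDX1 became 65 with DESeq2, 52 with at least 10 counts in at least 3 libraries (15704 tested), 24 with cyclic loess, 12 on the deposited log2 CPM, 283 with library size alone, 1198 with a replicate block and 45 without replicate 2 of every group. Leaving out 1 library gave 42 to 1207. GC-dependent offsets without EHF+CDX1 replicate 2, chosen after seeing the data, gave 52. The 27 interaction calls became 3 with DESeq2, 1 with at least 10 counts in 3 libraries, 1 with cyclic loess, 18 with limma voom, 0 on the deposited log2 CPM, 14 without robust fitting, 116 with a replicate block, 4 without replicate 2 of every group and 1 to 57 leaving out 1 library. After seeing the data, GC-dependent offsets gave 39, and 1 without EHF+CDX1 replicate 2. The 0 calls of EHF against EV became 1 with cyclic loess, 10 with limma voom, 2 without robust fitting, 1 in those libraries alone, 55 with a replicate block, 9 without replicate 2 of every group, 0 to 8 leaving out 1 library, 1 with GC-dependent offsets and 2 with these and without EHF+CDX1 replicate 2. The causes were not tested.

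Same-numbered CDX1 and EHF+CDX1 libraries deviated together with correlations of 0.09, 0.06 and -0.01. At few counts per region these cannot exclude a trait shared by a number. In every group replicate 2 had the highest median count and the lowest share of counts from 40 to 60 Mb of chromosome 5. That window was picked after its values were seen (2.56% against 4.45 and 4.38% in CDX1). The study states no pairing, so the main fit left the numbers out, and the replicate block called 786 higher and 412 lower. By the correlations, CDX1 replicates 1 and 2, but not replicate 3, were closest to the EHF+CDX1 library of their own number. All 30 named called regions, which were chosen from these same counts, stayed called under the replicate block, and none changed direction under any alternative. The share of called regions with the same sign in EHF against EV ran from 21.6 to 64.4%. With medians of 3 to 9 counts per region in CDX1, small differences were not detectable at this depth.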
